A study of Homo sapiens with 9 samples.

Results

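The genes examined here were the centromere protein genes and the kinesin genes, taken by symbol. That choice was made with earlier results of these data known. A member was a protein coding gene listed in both comparisons whose symbol was CENP followed by 1 or 2 letters, or KIF followed by digits and an optional letter. This rule took 60 genes, 21 CENP genes and 39 kinesin genes, of 51105 genes and 18872 protein coding genes listed in both.

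Centromere proteins build the platform on each chromosome to which the spindle attaches. Histone CENPA marks the centromeric chromatin, a constitutive centromere-associated network (CCAN) assembles on it, and an outer layer holds microtubules. Kinesins are motors that move along microtubules or shorten their ends, some in the mitotic spindle and others in transport or cilia. The mRNAs of both families end in a poly(A) tail, which PABPN covers chiefly before export from the nucleus and PABPC chiefly in the cytoplasm.

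HEK293T cells, a human embryonic kidney line of wildtype genotype, gave 3 biological replicates, and all cells were crosslinked with 0.1% formaldehyde for 10 min, including those used for input. Each lysate was divided for RNA immunoprecipitation (RIP) with an antibody against endogenous PABPN or PABPC, so that the 9 libraries were 3 of input, 3 of PABPN RIP and 3 of PABPC RIP. Total RNA was sequenced after depletion of ribosomal RNA, and reads in introns and exons were counted together. The question was which RNAs each protein associates with at steady state in this single line.

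Values below are the log2 fold change of RIP over input from DESeq2, with its standard error (SE). A gene was called enriched above 0.5 or depleted below -0.5 with an adjusted p of at most 0.01 and a mean over the 6 libraries of a comparison (baseMean) above 50 normalised reads. Values per library were not analysed here, so each level is the mean of a group, worked out from baseMean and fold change, and input levels differ between the comparisons by their separate normalisation. Estimated totals on the listed genes lay between 36.5 and 52.2 M reads per library. All RNA came from whole cultures, in which fewer cells that hold an mRNA and less of that mRNA per cell cannot be told apart, and no marker list was used to check the line. The median of all genes above the filter was -0.041 with PABPN and 0.14 with PABPC, and a value between 0 and that median changes sign when the fold changes are centred.

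The filter was passed by all 21 CENP genes in both comparisons. Among the kinesins it was passed by 35 with PABPN and 34 with PABPC. KIF2B was listed at 0 in both, KIF4B, KIF12 and KIF19 lay below the filter in both, and KIF25 passed with PABPN alone at a baseMean of 67.0 against 49.1 with PABPC. KIF4B is a near-identical copy of KIF4A, so reads of that pair are uncertain.

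The tail on which both proteins sit starts at the 3′ end of the mRNA, shortly after a hexamer that directs cleavage. The ends of mRNAs that the results turn on are therefore shown as the last 30 bases of the canonical transcript in GENCODE release 44 on hg38, 5′ to 3′ on the transcript's strand. Capitals mark AATAAA or, where that is missing from these 30 bases, ATTAAA. The first set shows 7 CENP genes described below, picked after their values were seen to hold both directions. CENPA ended at chr2:26794560-26794589 (plus strand), CENPX at chr17:82018703-82018732 (minus), CENPV at chr17:16342537-16342566 (minus), CENPW at chr6:126348846-126348875 (plus), CENPT at chr16:67828157-67828186 (minus), CENPP at chr9:92620500-92620529 (plus) and CENPE at chr4:103105811-103105840 (minus).
CENPA: gatAATAAAaatcaaaatatttaatgaaaa
CENPX: aacatcAATAAAtcaaaactgtctctccca
CENPV: ggaaaaaaAATAAAtatttttaacattaaa
CENPW: ttaactatggaatttaatctctgaagaaag
CENPT: cccagcatcAATAAAgtgtcataaacagaa
CENPP: ttcacaaaAATAAAcagttgtaaaagaaaa
CENPE: cacattcAATAAAtgtttagtagttctgaa

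The second set shows 5 kinesins picked in the same way. KIF1C ended at chr17:5028372-5028401 (plus), KIF11 at chr10:92655366-92655395 (plus), KIF20A at chr5:138187694-138187723 (plus), KIF16B at chr20:16272104-16272133 (minus) and KIF26B at chr1:245709403-245709432 (plus).
KIF1C: tatcttgAATAAAtttggggatcaaataca
KIF11: catggttAATAAAtgtggtttctacattaa
KIF20A: ttaaaacaaattataaaagggacagaaaaa
KIF16B: tatcaatATTAAAtgaagttatggcatcta
KIF26B: tggtggcATTAAAtgttcacttttattcta

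The hexamers were searched on the transcript strand in the last 50 bases, and a transcript with both was counted under AATAAA. Of the 55 members above the filter in both comparisons, 42 held AATAAA (76.4%), as did 66.8% of 12449 coding transcripts. Another 9 members held ATTAAA alone (16.4%), as did 15.3% of coding transcripts. The remaining 4 members, CENPW, CENPM, KIF22 and KIF24, held neither in this window. CENPX, enriched with PABPC, and CENPP, depleted from it, both held AATAAA. Both were picked after their values were seen, and hexamers were not counted by direction of the fold change.

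With PABPN, the medians of both families lay close to input, while single members ran from -1.44 for KIF20A to 1.48 for CENPT. Among the 21 CENP genes 1 was enriched and 4 were depleted, with a median log2 fold change of -0.01. Among the 35 kinesins above the filter 6 were enriched and 7 were depleted, with a median of -0.17. Over all genes tested 17.5% were enriched and 14.6% depleted, and over coding genes these shares were 15.1% and 16.5% with a median of -0.09.

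With PABPC the medians of the families lay on opposite sides of 0. Of the CENP genes, 11 were enriched and 7 depleted (median 0.50), and of the 34 kinesins above the filter 6 were enriched and 13 depleted (median -0.40). The share of all genes enriched was 38.4% and the share depleted 32.4%, and coding genes stood at 41.2% and 27.9% with a median of 0.25. The CENP share enriched, 52.4%, was above that of coding genes and the kinesin share, 17.6%, below it.

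The histone and DNA binding proteins of the centromere came first. CENPA (chr2:26764289-26801067, plus strand), the H3 variant that defines the centromere, had 748 normalised reads in input and 793 in the PABPN RIP (log2 0.08, SE 0.137, adjusted p 0.676). In the PABPC comparison its level went from 640.4 in input to 1846 in the RIP, a 2.88-fold enrichment (log2 1.53, SE 0.156, adjusted p 7.56e-22). CENPA was thus called with PABPC and not with PABPN.

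CENPB (chr20:3783851-3786740, minus strand) binds a short motif in centromeric satellite DNA and is encoded by 1 exon. It fell from 893 normalised reads in input to 500.3 in the PABPN RIP (log2 -0.84, SE 0.153, adjusted p 3.52e-07). With PABPC it was 3.38-fold enriched, from 763 to 2576 (log2 1.76, SE 0.106, adjusted p 9.56e-60). CENPB therefore passed the cut-offs in opposite directions.

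The 15 CCAN genes followed no common direction. With PABPN 1 was enriched and 3 were depleted (median -0.06), and with PABPC 8 were enriched and 4 depleted (median 0.50). The shares depleted, 20% with PABPN and 26.7% with PABPC, were near those of coding genes, 16.5% and 27.9%. Those enriched were 6.67% and 53.3%, beside 15.1% and 41.2%. CENPC (chr4:67468762-67545503, minus strand), the scaffold between CENPA nucleosomes and the outer kinetochore, was depleted from the PABPN RIP (-0.53, SE 0.111) and the PABPC RIP (-1.89, SE 0.0997), of which the PABPN call is lost on centring (-0.485). Its level was 3084 normalised reads in input and 833 in the PABPC RIP.

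The histone-fold proteins CENPT, CENPW, CENPS and CENPX form a complex that binds DNA, and CENPT also recruits the outer kinetochore. CENPT (chr16:67828157-67847811, minus strand) had the highest PABPN value of the members, 2.79-fold from 2042 to 5702 normalised reads (log2 1.48, SE 0.0944, adjusted p 3.41e-53), and passed with PABPC as well (log2 0.61, SE 0.104), a call that is lost on centring (0.47). Its partner CENPW (chr6:126340115-126348875, plus strand) was depleted from PABPN, from 1256 to 576 normalised reads (log2 -1.12, SE 0.157). With PABPC, CENPW went from 1075 to 2526 normalised reads (log2 1.23, SE 0.166, adjusted p 3.9e-13). The direct partners CENPT and CENPW thus lay at opposite ends of the CENP genes with PABPN and on the same side with PABPC.

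CENPS and CENPX also serve in repair of DNA crosslinks. CENPX (chr17:82018702-82024107, minus strand) went from 919 to 3536 normalised reads in the PABPC RIP, a 3.85-fold enrichment (log2 1.94, SE 0.171), and CENPS was enriched at 0.96 (SE 0.136). With PABPN neither was called, at -0.01 (SE 0.17), a sign that turns after centring, and -0.07 (SE 0.16). The spans of CENPS, CENPW and CENPN lay wholly (100%), and that of CENPV to 83.3%, within other gene models of GENCODE release 44 on either strand, which leaves the counts of these genes uncertain. The shared part was 69.1% for KIF3A, 46.1% for CENPA and 41.0% for KIF7, and below 40% for the other members above the filter, apart from CENPP and KIF2A, described below.

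CENPH, CENPI, CENPK and CENPM make up another CCAN unit, and their values were spread widely. CENPH (chr5:69189574-69210357, plus strand) was depleted from PABPN at -0.54 (SE 0.171, adjusted p 0.00552), a call that centring ends (-0.496), and enriched with PABPC at 1.23 (SE 0.134, adjusted p 1.85e-19). CENPI and CENPK were depleted from PABPC, at -1.24 (SE 0.131) and -1.23 (SE 0.107), and were not called with PABPN, at -0.33 (SE 0.0976) and 0.19 (SE 0.116). CENPM was called in neither, at -0.06 (SE 0.0967) and 0.07 (SE 0.0968), and its PABPC sign turns after centring. One protein complex therefore held an mRNA enriched with PABPC, a pair depleted from it and another close to input.

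CENPL and CENPN recognise the CENPA nucleosome together. CENPN was enriched with PABPC at 1.01 (SE 0.134) and CENPL at 0.50 (SE 0.127), the latter at 0.501 just inside the cut-off and outside it after centring (0.36). In the CENPO, CENPP, CENPQ and CENPU unit, CENPO was enriched with PABPC at 0.84 (SE 0.111). CENPU at 0.40 (SE 0.0908) and CENPQ at -0.30 (SE 0.115) were not called. None of CENPL, CENPN, CENPO, CENPQ and CENPU was called with PABPN, where they lay between -0.32 and 0.18.

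CENPP (chr9:92325953-92620529, plus strand) stood apart from its unit. It fell 9.03-fold with PABPC, from 16494 normalised reads in input to 1826 in the RIP (log2 -3.18, SE 0.0971, adjusted p 4.76e-232), the lowest PABPC value of the members. With PABPN it had 19287 normalised reads in input and 17620.2 in the RIP (log2 -0.13, SE 0.0885, adjusted p 0.245). Its 295 kb span is the widest of the CENP genes, it encodes 288 residues, and 42.3% of the span lies in other genes of the reference, stretches that the counting left out where they were annotated.

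Of the 4 outer kinetochore and other CENP genes, 3 were depleted from PABPC and 1 was enriched, beside 27.9% and 41.2% of coding genes. CENPE, itself a kinesin that carries chromosomes to the spindle equator, fell from 5578 to 1580.02 normalised reads (log2 -1.82, SE 0.133). CENPF, a long coiled-coil protein of the kinetochore, was depleted at -0.67 (SE 0.141), and CENPJ, needed for centriole growth, at -0.99 (SE 0.13). CENPV, a protein of the spindle midzone, went the other way and had the highest PABPC value of the members, 4.17-fold from 2715 to 11320.4 normalised reads (log2 2.06, SE 0.157, adjusted p 2.55e-38). None of these 4 genes was called with PABPN, where they lay between -0.23 and 0.18.

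**Figure D1:**
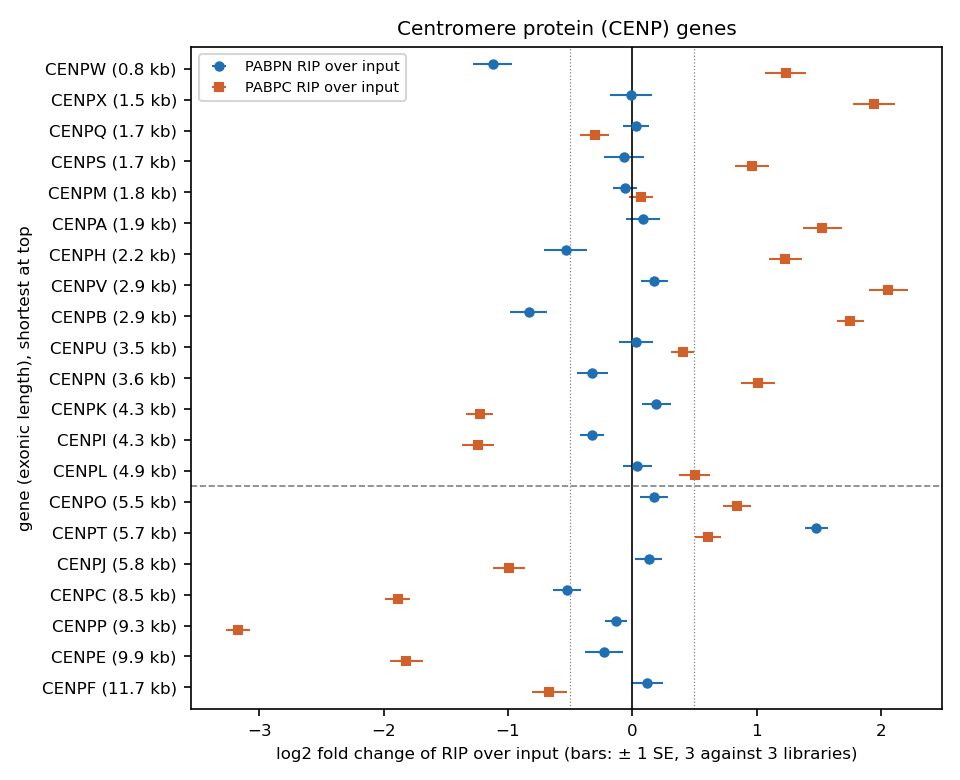
Log2 fold change of RIP over input for the 21 CENP genes, ordered by exonic length with the shortest at the top; symbols give PABPN and PABPC RIP over input and bars 1 SE either way, from 3 RIP and 3 input libraries. PABPN values cluster around 0 except CENPT at 1.48 and the 4 depleted genes, while PABPC values run from 2.06 for CENPV to -3.18 for CENPP.

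Kinesins of mitosis were examined as a list of 14, of which 12 passed the filter. With PABPN 2 were enriched and 4 depleted (median -0.33), and with PABPC 1 was enriched and 4 were depleted (median -0.40). The PABPN shares were 16.7% and 33.3%, beside 15.1% and 16.5% of coding genes. The PABPC shares were 8.33% and 33.3%, beside 41.2% and 27.9%. KIF20A (chr5:138178719-138187723, plus strand), a motor of cytokinesis, had the lowest PABPN value of the members, from 3827 to 1413 normalised reads (log2 -1.44, SE 0.148, adjusted p 7.16e-21). With PABPC it lay at 0.08 (SE 0.143, adjusted p 0.656), a sign that turns after centring. KIF20A was thus called with PABPN and not with PABPC.

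KIF11, the motor that pushes spindle poles apart, was also depleted from PABPN, from 7245 to 4103 normalised reads (log2 -0.82, SE 0.112), and was not called with PABPC at -0.41 (SE 0.14), where centring brings it past the cut-off (-0.55). KIF18A, which dampens chromosome movements, and KIF20B, a second motor of cytokinesis, were depleted from both. KIF18A (chr11:28020619-28108156, minus strand) had a PABPN value of -0.57 (SE 0.107) and fell 4.53-fold with PABPC, from 2876 to 635 normalised reads (log2 -2.18, SE 0.109). KIF20B stood at -0.55 (SE 0.119) and -1.43 (SE 0.135).

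KIF15, which can stand in for KIF11 in the spindle, was depleted from PABPC at -1.58 (SE 0.104), as was KIF14, a motor of late cytokinesis, at -0.79 (SE 0.147). Neither was called with PABPN, at -0.34 (SE 0.0956) and -0.03 (SE 0.106), of which the second changes sign after centring. KIF22, a motor that pushes chromosome arms, was the mitotic kinesin enriched in both, at 0.60 (SE 0.103) with PABPN and, with a call that is lost on centring (0.39), at 0.53 (SE 0.118) with PABPC. KIF18B, which acts on astral microtubules, was enriched with PABPN at 0.63 (SE 0.116) and stood at -0.18 (SE 0.121) with PABPC.

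The microtubule depolymerases KIF2A and KIF2C, the chromosome arm motor KIF4A and the midzone motor KIF23 were called in neither comparison. With PABPN they lay at -0.15, -0.33, -0.39 and -0.13, and with PABPC at 0.10, 0.26, -0.47 and -0.40, in the order just given. After centring, KIF4A (-0.61) and KIF23 (-0.54) were depleted from PABPC. The PABPC sign of KIF2A turns after centring, and nearly all of its span (99.9%) lies in other gene models of the reference.

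The other kinesins, 25 genes of transport, cilia and other roles, had 4 enriched and 3 depleted of 23 tested with PABPN (median -0.07). These shares, 17.4% and 13.0%, were near the 15.1% and 16.5% of coding genes. With PABPC 5 were enriched (22.7%) and 9 depleted (40.9%) of 22 (median -0.35), beside 41.2% and 27.9% of coding genes. The widest depletions from PABPC were those of KIF26B, KIF6 and KIF16B. KIF26B (chr1:245154985-245709432, plus strand), an atypical kinesin, fell 6.82-fold from 1130 to 166 normalised reads (log2 -2.77, SE 0.145). KIF16B (chr20:16272104-16573448, minus strand), a motor of early endosomes, fell from 3528 to 588 normalised reads (log2 -2.59, SE 0.119), and was depleted from PABPN as well at -0.65 (SE 0.104).

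KIF6 (chr6:39329990-39725408, minus strand), linked to motile cilia, was a gene of low level, with 317 normalised reads in input and 52.4 in the PABPC RIP (log2 -2.59, SE 0.212). It was not called with PABPN at -0.39 (SE 0.169, adjusted p 0.0475), and neither was KIF26B at -0.04 (SE 0.113), a sign that turns after centring. KIF27, a relative of the Hedgehog regulator KIF7, was depleted from PABPC at -1.10 (SE 0.137). The other 5 depleted kinesins of this list, KIF3A, KIF5C, KIF13A, KIF13B and KIF21A, ran from -1.44 to -0.52; they were named after their values were seen.

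KIF1C (chr17:4997950-5028401, plus strand), a transport motor of the kinesin-3 family, was the kinesin with the highest PABPC value. It went from 5804 to 17387 normalised reads with PABPC, 3.00-fold (log2 1.58, SE 0.141, adjusted p 1.54e-28), and stood at -0.17 (SE 0.157) with PABPN. KIF9, a ciliary kinesin, and KIF3B, a subunit of the motor that builds cilia, were enriched with PABPC at 1.01 (SE 0.162) and 0.97 (SE 0.159). KIF9 was the less abundant, with 30.7 normalised reads per kb of exon in input against 374 for KIF3B, where reads in introns are included in the count but not in the length.

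KIF5B, the ubiquitous heavy chain of conventional kinesin, was the kinesin that passed in opposite directions. It fell from 16443 to 8515 normalised reads with PABPN (log2 -0.95, SE 0.124, adjusted p 2.94e-13) and went from 14069 to 19898 with PABPC (log2 0.50, SE 0.147, adjusted p 0.00137). The PABPC value lies at the cut-off, and centring ends that call (0.36). Its neuronal paralogue KIF5A was enriched with PABPN at 0.75 (SE 0.122) and was not called with PABPC at 0.12 (SE 0.135), where centring turns the sign.

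Further kinesins enriched with PABPN were KIF24, which trims microtubules at the centriole, at 0.67 (SE 0.11), KIF26A, an atypical member, at 0.54 (SE 0.163), and KIF7, a regulator of Hedgehog signalling at the cilium, at 0.50 (SE 0.118). With PABPC, KIF26A was enriched at 0.65 (SE 0.103), while KIF24 at -0.44 (SE 0.116), called only after centring (-0.58), and KIF7 at -0.11 (SE 0.114) were not called. KIF7 passed the PABPN cut-off narrowly, at 0.501. KIF3C, a further subunit of the kinesin-2 family named after its value was seen, was depleted from PABPN at -0.53 (SE 0.126). That call is lost on centring.

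**Figure D2:**
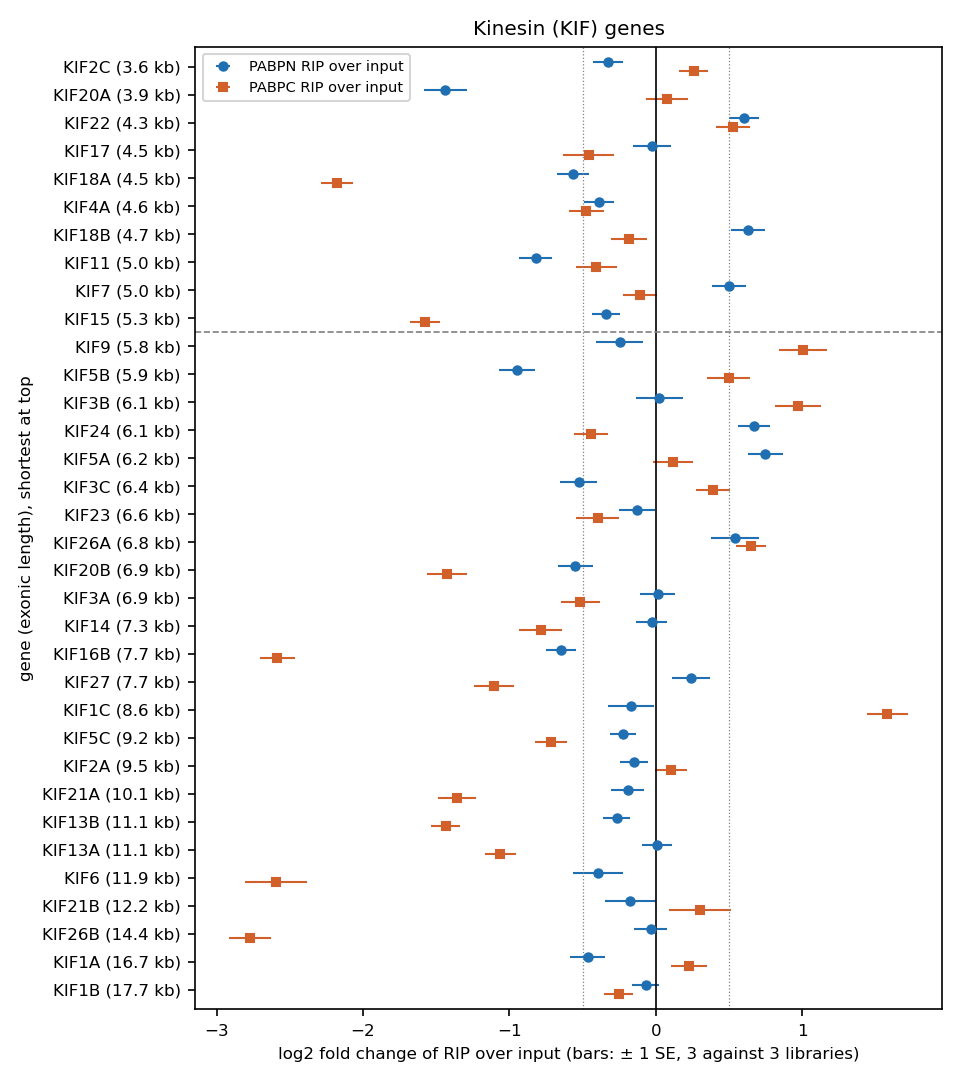
Log2 fold change of RIP over input for the kinesin genes above the filter, ordered by exonic length with the shortest at the top; symbols give PABPN and PABPC RIP over input and bars 1 SE either way, from 3 RIP and 3 input libraries. PABPN values lie between -1.44 for KIF20A and 0.75 for KIF5A, and PABPC values run from -2.77 for KIF26B to 1.58 for KIF1C.

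Short CENP genes were then set beside long kinesin genes. The study had already reported a negative correlation of coding sequence length with PABPC enrichment over coding genes. Short meant an exonic length at or below 5407.5 bases, the median of 12452 coding genes above the filter in both comparisons. This length ranked genes much as the exon union did (Spearman 0.948) and is not the length of 1 mRNA. CENPT counted as long at 5660 bases, while its canonical transcript holds 1683 coding bases, 784 untranslated bases before them and 110 after. By this measure 14 of the 21 CENP genes were short, with a median exonic length of 2534 bases, and 24 of the 34 kinesins above the filter in both were long, with a median of 7730 bases. The proteins differed likewise, with medians of 268.5 and 1342.5 residues.

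With PABPC, 41.2% of coding genes were enriched and 27.9% depleted. Of the 14 short CENP genes, 9 were enriched (64.3%) and 2, CENPI and CENPK, depleted (14.3%), with a median of 0.99, from -1.24 to 2.06. Of the 24 long kinesins, 5 were enriched (20.8%) and 11 depleted (45.8%), with a median of -0.42, from -2.77 to 1.58. The ranges overlapped, since KIF1C, KIF9 and KIF3B among the long kinesins lay near or above the short CENP median. With PABPN the medians were -0.04 and -0.16. There, 0 of 14 short CENP genes were enriched and 3, CENPB, CENPH and CENPW, depleted, against 3 enriched and 4 depleted among the long kinesins. The shares depleted, 21.4% and 16.7%, were near the 16.5% of coding genes. Those enriched were 0% and 12.5%, beside 15.1% of coding genes.

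The remaining members allowed family and length to be crossed. The 7 long CENP genes had a PABPC median of -0.99, with 2 enriched (CENPO and CENPT) and 5 depleted. The 10 short kinesins had a median of -0.29, with 1 enriched (KIF22) and 2 depleted (KIF15 and KIF18A). Shares over coding genes were 41.2% enriched and 27.9% depleted. Within the CENP family the long genes thus had the lower median, while short and long kinesins lay closer together. Exonic length and PABPC fold change had a Spearman correlation of -0.673 over the 21 CENP genes and -0.264 over 34 kinesins, against -0.484 over 12582 coding genes. Genes are not independent replicates, all points share the same 6 libraries, and these values are descriptions.

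Genomic span, which includes introns, followed the PABPC fold change more closely than exonic length did. The Spearman correlation with span was -0.836 over CENP genes, -0.701 over kinesins and -0.771 over 12572 coding genes. Median spans were 23.1 kb for short CENP genes and 75.1 kb for long kinesins, beside 37.9 kb for coding genes. The widest kinesin genes, KIF26B at 554 kb, KIF6 at 395 kb and KIF16B at 301 kb, held the lowest kinesin values with PABPC, and the narrow CENPX at 5.41 kb, CENPB at 2.89 kb and CENPV at 11.1 kb held the highest CENP values. With PABPN the correlation with span was 0.082 over CENP genes and -0.287 over kinesins.

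In a comparison added after seeing the data, coding genes were divided by span into 10 bins of equal size, and each member was set against the median of its bin. The bins ran from a PABPC median of 1.72 for the narrowest genes to -2.01 for the widest. Relative to their bins, the short CENP genes had a median of 0.01 and the long kinesins of 0.25, and 8 of 21 CENP genes and 16 of 34 kinesins lay above 0. The long CENP genes remained low in their median at -1.17, with CENPC at -1.43, CENPE at -1.36, CENPP at -1.17 and CENPJ at -1.17. Of the other long CENP genes, CENPF stood at -0.56, CENPT at -0.04 and CENPO at 0.40. Bins of exonic length gave -0.20 for short CENP genes and -0.29 for long kinesins. For long CENP genes they gave -1.24, with 3 of 7 above 0.

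By role, the mitotic kinesins lay below coding genes of like span, with a median of -0.76 and 3 of 12 above 0. The lowest of them was KIF18A at -1.72, followed by KIF20B at -1.32, KIF20A at -1.19 and KIF15 at -1.12, and the 3 above 0 were KIF2A, KIF4A and KIF11. The kinesins of transport and other roles had a median of 0.25 with 13 of 22 above 0, a sign that turned with bins of exonic length (-0.29, 9 of 22), where the mitotic kinesins stood at -0.62 with 1 of 12 above 0. The highest of them was KIF1C at 1.14, then KIF9 at 1.11 and KIF3B at 1.08. Reads in introns entered these counts, so the share of unspliced RNA in each RIP bears on a relation with span, and its part in the fold changes was not tested.

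**Figure D3:**
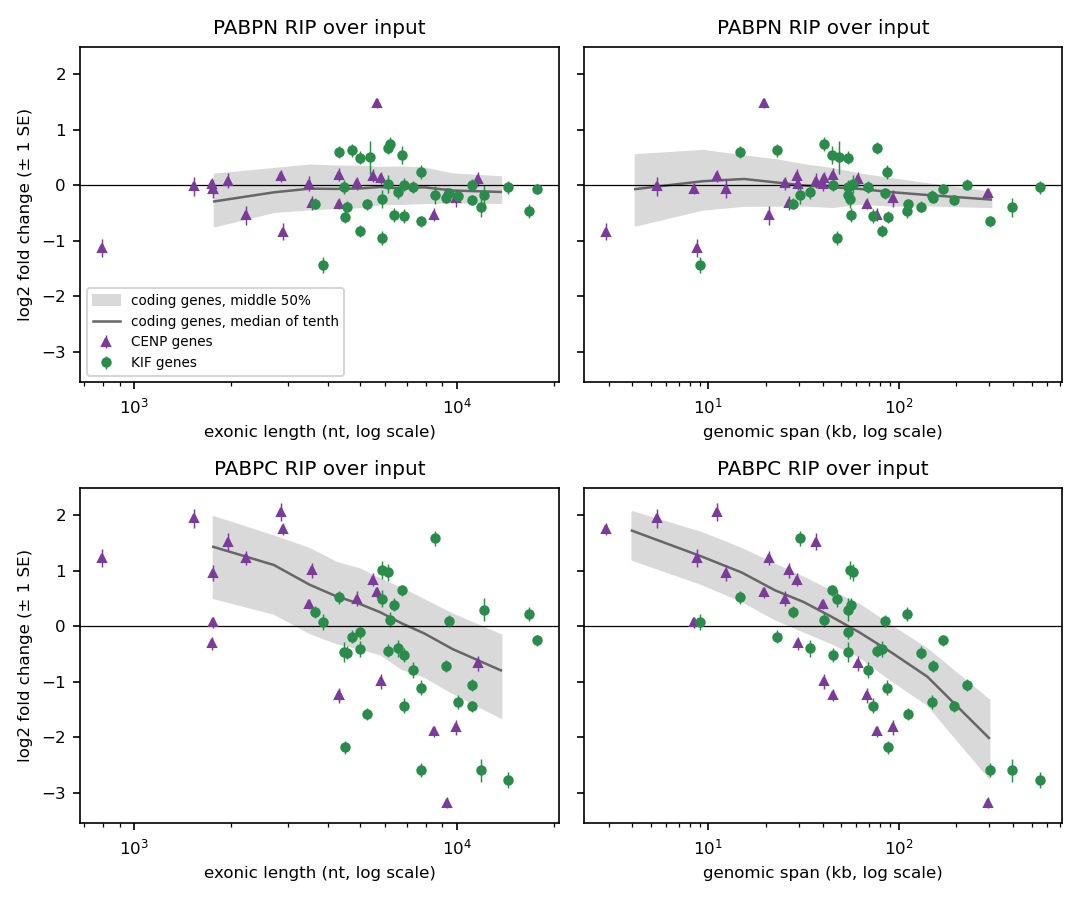
Log2 fold change of RIP over input for PABPN and PABPC against exonic length and genomic span on log axes, with CENP genes and kinesins as points (bars 1 SE either way) and the median and middle 50% of coding genes in each of 10 bins as a line and band. The PABPC values are lower in genes of wider span (Spearman -0.767 over 55 members), with most long CENP genes below the line, and the PABPN values, from -1.44 to 1.48, have a weaker relation with span (-0.216 over 56 members).

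The difference between the RIPs was tested directly, as PABPN minus PABPC on the log2 scale with a two-sided normal test adjusted over 14581 genes. Both fold changes rest on the same input, whose error was counted in each, so the error of the difference is too large rather than too small. A gene was called with a difference beyond 0.5 and an adjusted p of at most 0.01. By this rule 8 CENP genes were called on the PABPN side and 9 on the PABPC side, and 16 and 8 kinesins. The shares called were 36.1% and 33.4% of all genes tested, and 30.6% and 37.8% of coding genes. Among short CENP genes 2 were called on the PABPN side and 8 on the PABPC side (median -1.18), and among long kinesins 12 and 6 (median 0.51).

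The genes most on the PABPC side were of the CENP family. CENPB had a difference of -2.59 (error 0.186, adjusted p 7.32e-43), CENPW of -2.36 (error 0.228), CENPX of -1.96 (error 0.241) and CENPV of -1.88 (error 0.191). The kinesins lowest in this order were KIF1C at -1.75 (error 0.21), KIF20A at -1.51 (error 0.206) and KIF5B at -1.45 (error 0.192). For KIF20A and KIF5B the separation rested mainly on low PABPN values, and for KIF1C on a high PABPC value.

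CENPP was highest on the PABPN side at 3.05 (error 0.131, adjusted p 1.57e-116). It was followed by KIF26B at 2.73 (error 0.183), KIF6 at 2.20 (error 0.271), KIF16B at 1.94 (error 0.158), KIF18A at 1.61 (error 0.153) and CENPE at 1.59 (error 0.202). All 6 were depleted from PABPC, and 2 of them, KIF16B and KIF18A, were depleted from PABPN as well. CENPL, CENPM, CENPQ and CENPU were the CENP genes without a call for the difference, which lay between -0.46 and 0.33.

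**Figure D4:**
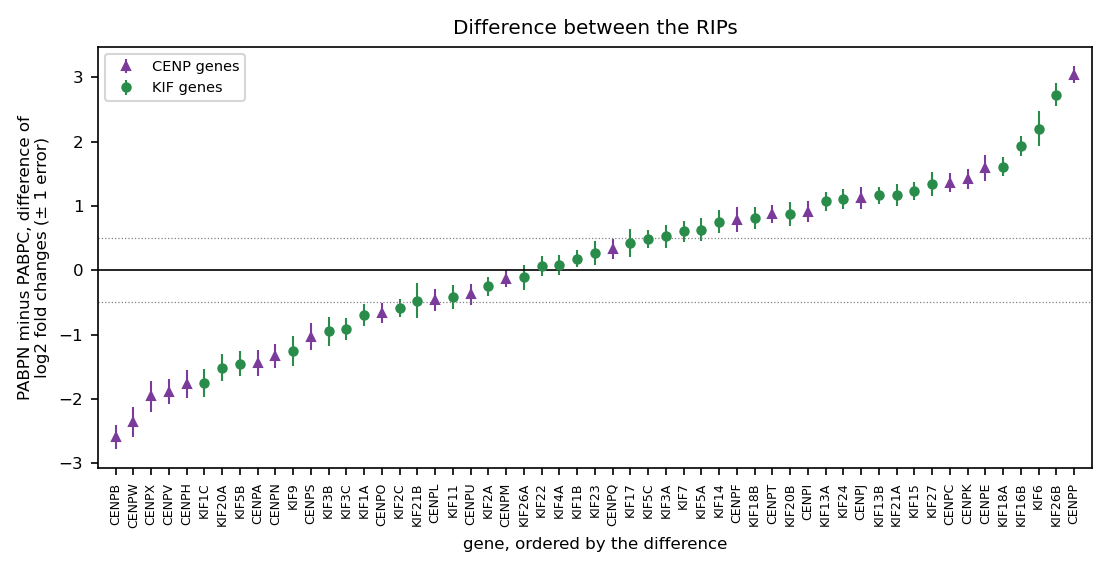
PABPN minus PABPC difference of log2 fold changes for the 55 members above the filter in both comparisons, in rank order, with bars of 1 error either way and separate symbols for CENP genes and kinesins. CENPB is lowest at -2.59 and CENPP highest at 3.05, so the CENP genes hold both ends of the order.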

How the data were processed

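PABPN RIP, PABPC RIP and input RNA (3 libraries each, single-end reads of 75 nt from a stranded kit) were analysed. The authors aligned reads to hg38 with STAR, counted introns and exons together with featureCounts 2.0.2 on an annotation from which stretches shared by overlapping genes had been removed, and compared each RIP with input in DESeq2. They also removed genes with marked transcription from upstream, separately for each comparison. The comparisons list 51111 genes with PABPN and 51268 with PABPC. Whether strand was used in counting was not given in the sources used here. The 2 deposited tables hold only these comparisons, so the fold changes and errors of the authors' DESeq2 fit were used as deposited. The signal deposited by the authors, baseMean, is the mean of size-factor normalised counts over 6 libraries. The deposited log2 columns are the fold change and its SE. The deposited score (Wald statistic) equalled fold change over SE in a check. The deposited p-value columns give the Wald test, raw and after Benjamini-Hochberg adjustment. Of 51234 and 51391 rows, 123 in each repeated a gene and were dropped.

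Calls used the study's cut-offs. Group means were derived from baseMean and fold change, and depth from the baseMean of genes with a single read. The deposited length had a Spearman correlation of 0.948 with the exon union in GENCODE release 44, from which spans, residues and transcript ends were taken. Python 3.11.15, pandas 2.3.3 and scipy 1.17.1 were used, and the scripts were tested on simulated data. The members and lists were chosen with earlier results of these data known. Genes named were all CENP genes above the filter, the mitotic kinesins, and the 5 kinesins with the highest and the 5 with the lowest difference. Kinesins called on the opposite side of 0 from most of their length class were added, as were partner genes called in opposite directions (up to 6). Kinesins on that side without a call, such as KIF1A at 0.23 and KIF21B at 0.30 with PABPC, were not named by this rule. Others were named after their values were seen.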

Additional observations from a re-analysis of the deposited data

How the results depend on the processing

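No paired analysis was possible because values per library were not analysed here, and for the same reason the replicate block and leaving out each replicate were not run. Other cut-offs for adjusted p or baseMean left every count of called members within 1.5 times its value. With a log2 cut-off of 1 in place of 0.5, the depleted CENP genes with PABPN went from 4 to 1, the enriched kinesins from 6 to 0 and the depleted kinesins from 7 to 1. With PABPC the enriched CENP genes went from 11 to 7 and the enriched kinesins from 6 to 2. For the difference, CENP genes higher with PABPN went from 8 to 5, kinesins higher with PABPN from 16 to 10 and kinesins higher with PABPC from 8 to 4. A Wald test against 0.5 gave 1 depleted CENP gene, 0 enriched and 2 depleted kinesins with PABPN, and 3 enriched kinesins with PABPC. Without a log2 cut-off, 12 kinesins were depleted from PABPN. Centring on the median of all genes left 2 depleted CENP genes with PABPN and moved the PABPC medians to 0.85 for short CENP genes and -0.56 for long kinesins. All CENP genes without a split had a PABPC median of 0.50. A split by genomic span, added after seeing the data, gave 1.01 for short CENP genes and -0.47 for long kinesins.

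Over the named genes, 286 values kept their direction and their side of the threshold, 62 kept their direction but lost the call, most of them under the log2 cut-off of 1 (36) or the Wald test against 0.5 (20), and 5 gained one. Centring turned the sign of 7 values of named genes, none of them called. With PABPN, CENPX became 0.028, KIF14 0.012 and KIF26B 0.0055, and with PABPC, CENPM became -0.070, KIF20A -0.063, KIF5A -0.024 and KIF2A -0.036. The cause of these moves is the shift itself, by -0.041 and 0.14. Among named genes it also ended the calls of CENPH and CENPC with PABPN and of CENPL, CENPT, KIF22 and KIF5B with PABPC. It added those of KIF4A, KIF11, KIF23 and KIF24 with PABPC and of CENPL for the difference (-0.53). Outside them, KIF3C lost its call with PABPN and KIF3A its call for the difference, and KIF17 became depleted with PABPC. Depleted kinesins thus went from 7 to 6 with PABPN and from 13 to 18 with PABPC. Apart from KIF25, the members above the filter with the fewest reads were KIF9, KIF21B and KIF6, where the SE with PABPC was 0.162, 0.211 and 0.212.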

Other observations

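Partner genes of the members were taken from lists of their own. In the outer kinetochore network of 10 genes, to which the CCAN connects, 3 were enriched and 0 depleted with PABPN (DESeq2 adjusted p and the cut-offs above), and 5 were enriched and 4 depleted with PABPC. The background over coding genes was 15.1% enriched and 16.5% depleted in the PABPN comparison, and 41.2% and 27.9% in the PABPC comparison. ZWINT, the docking factor of the outer layer, was enriched in both, at 0.99 (SE 0.121) and 1.64 (SE 0.154). Among 4 genes that load CENPA, 1 was enriched with PABPN, namely the CENPA chaperone HJURP at 0.59 (SE 0.107), and with PABPC 2 were enriched and 1 depleted. HJURP stood at -0.04 (SE 0.109) with PABPC, whereas MIS18A, which prepares the site for CENPA, was enriched there at 1.65 (SE 0.16) and stood at -0.18 (SE 0.123) with PABPN. Of 10 kinesins and partners whose symbols the rule did not take, 2 were enriched and 0 depleted with PABPN, and 3 were enriched and 3 depleted with PABPC. The CCAN partner ITGB3BP, also known as CENPR, was among the depleted, at -0.62 (SE 0.108).

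The 13 checkpoint and chromosomal passenger genes had 1 enriched and 5 depleted with PABPN, and 6 enriched and 3 depleted with PABPC. The PABPC shares, 46.2% and 23.1%, were near those of coding genes (41.2% and 27.9%), and the PABPN shares were 7.69% and 38.5% beside 15.1% and 16.5%; no test of the list was made. Among the 13 genes, 4 passed in opposite directions. MAD1L1, which anchors the checkpoint protein MAD2L1 at unattached kinetochores, was enriched with PABPN at 0.92 (SE 0.185) and depleted from PABPC at -1.92 (SE 0.107). MAD2L1 itself was the reverse, at -1.01 (SE 0.116) and 1.57 (SE 0.137). BIRC5, a subunit of the passenger complex, stood at -0.62 (SE 0.129) and 2.17 (SE 0.15), and the mitotic kinase PLK1 at -0.96 (SE 0.135) and 1.195 (SE 0.136). The difference between the RIPs was 2.84 (error 0.214) for MAD1L1, -2.58 (error 0.18) for MAD2L1, -2.79 (error 0.198) for BIRC5 and -2.16 (error 0.192) for PLK1, each past the cut-offs of the two-sided normal test. The checkpoint partners MAD1L1 and MAD2L1 thus lay on opposite sides of input in both comparisons.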
